A study of Homo sapiens with 6 samples.

Results

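The TNF superfamily was followed in the basal-like breast cancer cell line MCF10DCIS.com, a derivative of the MCF10A mammary epithelial lineage that forms comedo-type ductal carcinoma in mice. Its members were taken by name from the gene table: every TNFSF and TNFRSF gene together with TNF, LTA, LTB, CD40, CD40LG, FAS, FASLG, CD70, CD27, LTBR, NGFR and RELT, which gave 45 of 26334 genes, 18 ligands and 27 receptors. Poly-A RNA was sequenced from 6 libraries, 3 from cells infected with a pRSI-U6 vector carrying an shRNA to luciferase (shLuc, the control) and 3 from cells infected with the same vector carrying shRNA to WDR5 (shWDR5). Both groups carried the TagRFP and puromycin cassette, and both were selected in puromycin at 3 µg/ml in medium with horse serum. WDR5 is the WD40-repeat subunit that histone methyltransferase complexes share, and the comparison asks which transcripts depend on it in these cells. All libraries came from this cell line, and the only control was this shRNA to luciferase. The labels do not say whether replicates were separate infections. The p-values set the group difference against the spread between these libraries, which may not cover the spread between infections. The libraries held 38218108 to 57640167 counted reads, of which the 50 most abundant genes took 13.7% to 14.6% in shLuc and 16.7% to 17.6% in shWDR5.

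TNF superfamily ligands are mostly trimeric membrane proteins that can be shed, and their receptors signal through cytoplasmic adaptors rather than through an enzyme of their own. Receptors with a death domain (TNFRSF1A, FAS, TNFRSF10A, TNFRSF10B, TNFRSF21, TNFRSF25, NGFR) can start apoptosis or NF-kB signalling, most of them, though not typically NGFR, through TRADD or FADD. The other signalling receptors bind TRAF proteins directly, while the decoy receptors (TNFRSF10C, TNFRSF10D, TNFRSF6B, TNFRSF11B) take up ligand without a full signal. In epithelial cells the family links inflammation to survival, death and differentiation.

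The targeted gene followed the labels. WDR5 was 16.5, 15.2 and 16.1 RPKM (the read count scaled to exon length and to library size) in the shLuc libraries and 7.34, 7.65 and 6.52 RPKM in the shWDR5 libraries, so the groups did not overlap and the fold was 0.450 (log2 fold change -1.15, SE 0.074, adjusted p = 8.67e-07). Of the epithelial markers, the basal genes KRT5, KRT14, KRT17, TP63 and ITGA6 and the general genes CDH1 and EPCAM were all detected. Their summed level ran from 2387 to 2471 RPKM in shLuc and from 3780 to 4205 RPKM in shWDR5. Most of that sum was KRT17 (1372 and 2623 RPKM by group mean) and KRT5 (356 and 671 RPKM), while CDH1 fell from 103 to 50.3 RPKM and EPCAM from 165 to 131 RPKM, and ITGA6 did not pass the test. Of 8 leukocyte markers, CD3E and CD3D were at 0 in every library, MS4A1 reached at most 1 read and PTPRC at most 7 reads. The summed leukocyte level was 2.83 to 3.49 RPKM in shLuc and 2.66 to 2.96 RPKM in shWDR5, although within the list ITGAM rose and CD14 fell. For 6 stromal and endothelial markers the sum was 5.44 to 5.71 RPKM in shLuc and 3.65 to 4.06 RPKM in shWDR5, and ESR1 and PGR together stayed at or under 0.588 RPKM.

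The family changed in both directions in the shWDR5 cells. Among the ligands, the lymphotoxin and TNF genes LTB and TNF and the LTBR ligand TNFSF14 rose by 2.88-fold to 6.76-fold and TNFSF15 by 1.65-fold. CD70, TNFSF9, TNFSF12 and TNFSF10 fell by smaller amounts. Among the receptors, NGFR fell to 0.215 of its control level, and TNFRSF10B, TNFRSF6B and TNFRSF21 fell by less. The TRAIL decoy receptor TNFRSF10D, LTBR, TNFRSF12A and TNFRSF1A rose by 1.25-fold to 1.63-fold, and TNFRSF10A rose by less. The calls of TNFSF10 and TNFRSF21 were lost in 8 and 7 of 11 alternative fits. Of the 45 members, 30 had enough reads to be tested, and 17 of these passed the threshold (an adjusted p under 0.05), 9 higher and 8 lower in shWDR5. Across all 16117 genes tested, 56.5% passed it, 26.6% higher and 29.9% lower, so the share of 56.7% among the tested members was near the background and is no result about the family.

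By the median, the tested ligands changed more than the tested receptors, but the contrast rests on few genes. Of 18 ligands, 11 were tested, and 4 rose and 4 fell, or 36.4% each against 26.6% and 29.9% of all genes tested. Their median absolute log2 fold change was 0.62 against 0.31 over all genes tested. That ligand median is the value of TNFSF12 (log2 fold change -0.62, SE 0.18), whose level is uncertain because of a read-through gene described below. Of 27 receptors, 19 were tested, and 5 rose and 4 fell, or 26.3% and 21.1% against the same shares of all genes. Their median absolute log2 fold change was 0.31. When a log2 fold change of at least 0.6 was also required, which 22.9% of all genes met (10.9% higher, 12.0% lower), 4 ligands rose and 1 fell, and 1 receptor rose (TNFRSF10D) and 1 fell (NGFR). These counts describe the tested members alone, since TNF and CD27 reached the read minimum in all 3 shWDR5 libraries but in only 1 shLuc library. TNF, counted among the ligands that rose, thus entered the test only through the group where it was high. Summed over all 18 ligands, the level was 31.6 ± 0.654 RPKM in shLuc and 49.2 ± 1.69 RPKM in shWDR5 (SD, n = 3 per group). That rise came mainly from LTB (2.62 and 17.9 RPKM by group mean) and TNFSF14 (3.39 and 9.75 RPKM). It is not a rise of the class, since CD70 fell from 10.9 to 7.84 RPKM and TNFSF9 from 7.60 to 6.04 RPKM, 2 of the 4 ligands that fell. For the 27 receptors together it was 897 ± 43.4 and 838 ± 36.2 RPKM (SD, n = 3 per group), ranges that overlapped. This sum joins opposite changes and does not show that receptor transcripts were unchanged. By group mean NGFR fell from 210 to 45.1 RPKM, while TNFRSF12A rose from 295 to 376 RPKM and LTBR from 61.4 to 83.5 RPKM.

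**Figure D1:**
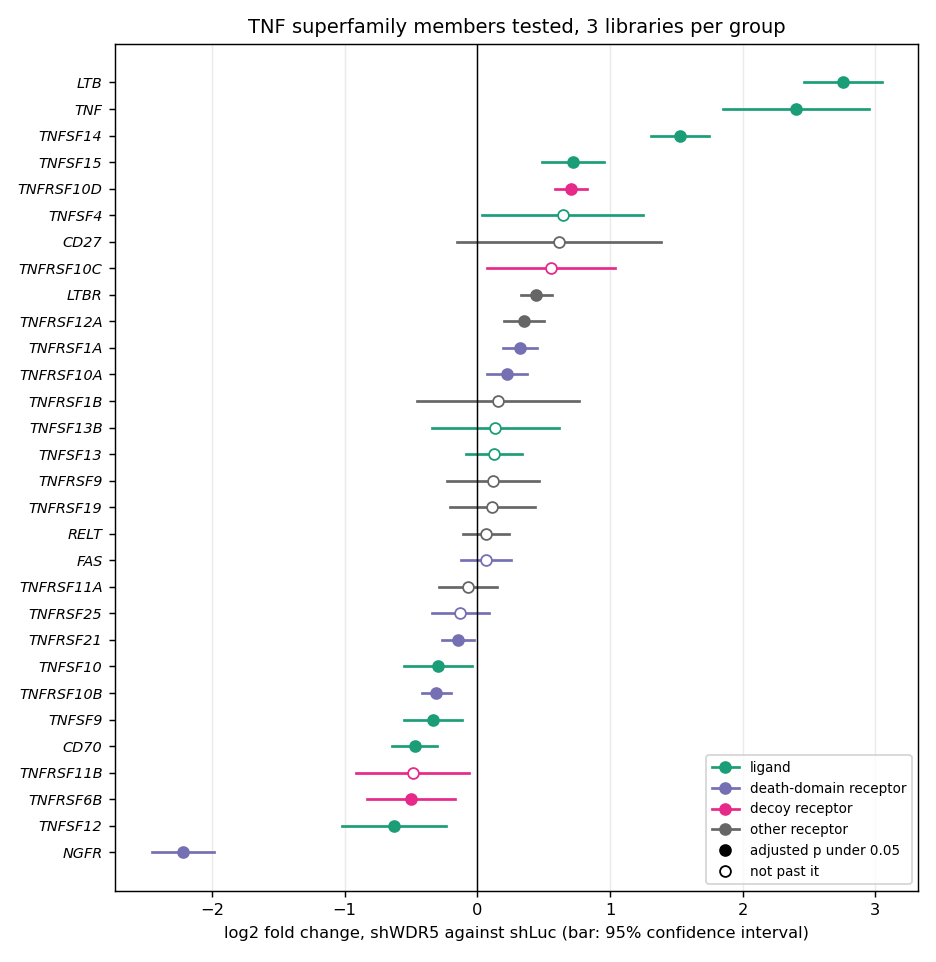
The log2 fold change of shWDR5 against shLuc (x axis) for the 30 members tested, with 95% confidence intervals as bars; filled points had an adjusted p under 0.05, and colours separate ligands, death-domain receptors, decoy receptors and other receptors. LTB (2.76) and TNF (2.40) stand at the top and NGFR (-2.22) at the bottom, and most receptors lie between -0.5 and 0.5.

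The ligands LTA, TNF and LTB are neighbours in the class III region of the MHC. LTB, lymphotoxin beta, which anchors lymphotoxin alpha to the membrane in the heterotrimer that binds LTBR, was 3.15, 2.71 and 2.00 RPKM in the shLuc libraries and 18.6, 16.6 and 18.4 RPKM in the shWDR5 libraries. Every shWDR5 library therefore stood above every shLuc library, and LTB was 6.76-fold higher (log2 fold change 2.76, SE 0.13, adjusted p = 1.8e-07), the 60th highest of the 16117 genes tested. Tumour necrosis factor itself, the founding inflammatory cytokine of the family, was listed with 13, 5 and 8 reads in shLuc and with 51, 57 and 52 reads in shWDR5. On the length scale TNF was at 0.117 ± 0.04 RPKM and 0.647 ± 0.044 RPKM (SD, n = 3 per group), a 5.29-fold rise (log2 fold change 2.40, SE 0.25, adjusted p = 1.9e-05) from a level far under that of LTB. TNF reached the read minimum in all 3 shWDR5 libraries but in only 1 shLuc library. It therefore entered the test only through the group where it was high. LTA, the soluble lymphotoxin, had 2, 5 and 4 reads in shLuc and 12, 10 and 18 reads in shWDR5, too few to enter the main test. With no read minimum its log2 fold change was 1.62 (SE 0.52, adjusted p = 0.0171). Non-overlapping groups in this direction were seen in 29.9% of all genes tested.

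In hg19, LTA lies at chr6:31539876-31542100 and TNF at chr6:31543344-31546112, both on the plus strand, with 1.244 kb between them. LTB follows at chr6:31548336-31550202 on the minus strand, 2.224 kb beyond TNF. Within 100 kb of this group the table held 22 other genes, of which 13 were tested, 5 rose and 4 fell, with log2 fold changes from -1.47 to 0.59, below those of LTB and TNF. The windows before the start sites of these genes are shown because the members moved in the same direction, and those of TNFSF14 and TNFSF15 because both of these ligands rose as well. Each is the 250 bases before the most downstream start that RefSeq lists in GRCh38.p14, read 5′ to 3′ on the gene's strand. The capitals mark matches on either strand to the kappa B consensus GGGRNNYYCC, the motif that NF-kB dimers recognise. In it R is A or G, Y is C or T and N is any base.

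LTA, chr6:31572039-31572288, plus strand: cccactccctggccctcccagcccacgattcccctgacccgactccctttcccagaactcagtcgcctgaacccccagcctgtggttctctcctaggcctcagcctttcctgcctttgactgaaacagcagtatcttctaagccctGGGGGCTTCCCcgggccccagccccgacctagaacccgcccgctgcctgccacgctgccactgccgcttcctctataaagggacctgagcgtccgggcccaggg
TNF, chr6:31575315-31575564, plus strand: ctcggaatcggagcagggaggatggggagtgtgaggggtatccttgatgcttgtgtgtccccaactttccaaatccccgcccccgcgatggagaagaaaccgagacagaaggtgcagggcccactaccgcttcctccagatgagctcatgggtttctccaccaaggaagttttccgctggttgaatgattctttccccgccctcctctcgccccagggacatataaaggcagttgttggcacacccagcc
LTB, chr6:31582425-31582674, minus strand: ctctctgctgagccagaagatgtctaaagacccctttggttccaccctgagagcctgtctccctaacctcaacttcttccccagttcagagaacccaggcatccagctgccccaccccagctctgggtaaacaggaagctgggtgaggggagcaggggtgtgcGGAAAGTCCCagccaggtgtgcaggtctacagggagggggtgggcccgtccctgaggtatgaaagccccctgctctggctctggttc
TNFSF14, chr19:6670159-6670408, minus strand: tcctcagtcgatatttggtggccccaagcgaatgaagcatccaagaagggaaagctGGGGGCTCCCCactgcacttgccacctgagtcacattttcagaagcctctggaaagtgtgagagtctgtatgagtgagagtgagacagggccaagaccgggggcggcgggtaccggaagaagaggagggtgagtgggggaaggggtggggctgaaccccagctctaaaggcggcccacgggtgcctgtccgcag
TNFSF15, chr9:114792531-114792780, minus strand: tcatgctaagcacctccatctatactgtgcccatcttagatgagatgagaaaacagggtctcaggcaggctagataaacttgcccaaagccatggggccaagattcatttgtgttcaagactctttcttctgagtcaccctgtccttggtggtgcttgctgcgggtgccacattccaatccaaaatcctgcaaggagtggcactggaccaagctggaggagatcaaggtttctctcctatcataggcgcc

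In LTB the kappa B match began 87 bases before the start site, in LTA a pair of overlapping matches began 104 and 103 bases before it, and in TNFSF14 an overlapping pair began 194 and 193 bases before it. The TNF and TNFSF15 windows held no match to these letters, nor did the window before the other start listed for LTA, chr6:31571849-31572098. Sites that depart from the letters were not counted, such as gggtttctcc in the TNF window, which differs only at the base after GGG. The lack of a match is therefore no evidence that NF-kB cannot bind there. The AP-1 motif TGANTCA, searched on both strands like the first, occurred in the TNFSF14 window 168 bases and in the TNFSF15 window 120 bases before the start, apart from any kappa B match. RefSeq windows were listed for 29 of the 45 members, and 9 of these genes held a kappa B match in at least 1 window, 31.0%, against 11.8% of 27305 genes. The 9 were FAS, LTA, LTB, TNFRSF14, TNFRSF19, TNFRSF9, TNFSF11, TNFSF13 and TNFSF14, of which LTB and TNFSF14 rose, FAS, TNFRSF19, TNFRSF9 and TNFSF13 were tested and did not pass, and the others were not tested in the main fit. TGANTCA was present in 5 of the 29, or 17.2%, against 8.06% of all genes. A match in a window is a description of its letters.

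TNFSF14, also called LIGHT, binds LTBR and TNFRSF14 and in lymphoid tissue costimulates T cells. Its level was 3.06, 3.26 and 3.86 RPKM in shLuc and 10.2, 8.88 and 10.2 RPKM in shWDR5, with no overlap, a 2.88-fold rise (log2 fold change 1.52, SE 0.098, adjusted p = 8.98e-07). TNFSF15, or TL1A, the ligand of the death receptor TNFRSF25, stood lower at 0.619, 0.682 and 0.743 RPKM in shLuc and 1.20, 1.01 and 1.17 RPKM in shWDR5. It rose 1.65-fold (log2 fold change 0.72, SE 0.1, adjusted p = 0.00019), again with every shWDR5 library above every shLuc library.

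The ligands that fell include T cell costimulators and death or repair signals, and TNFSF14, which rose, is a T cell costimulator too. CD70, the ligand of CD27, was 11.1, 11.2 and 10.4 RPKM in shLuc and 7.94, 8.09 and 7.49 RPKM in shWDR5, and it fell to 0.721 of the control level (log2 fold change -0.47, SE 0.077, adjusted p = 0.000414). TNFSF9, the ligand of TNFRSF9, was 8.30, 6.67 and 7.83 RPKM in shLuc and 6.21, 6.44 and 5.46 RPKM in shWDR5, a narrow gap with a fold of 0.794 (adjusted p = 0.0149). Its call was lost without shLuc replicate 1 (adjusted p = 0.0643), shLuc replicate 3 (adjusted p = 0.0569) or shWDR5 replicate 3 (adjusted p = 0.0561). These groups were apart for both genes, a pattern found in 32.4% of all genes tested for this direction.

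TNFSF12, or TWEAK, which acts through TNFRSF12A in tissue repair, was 1.07, 1.02 and 0.900 RPKM in shLuc and 0.810, 0.606 and 0.529 RPKM in shWDR5. It fell to 0.649 (log2 fold change -0.62, SE 0.18, adjusted p = 0.0115), and the libraries of the groups did not overlap. TNFSF10 encodes TRAIL, the ligand of the death receptors TNFRSF10A and TNFRSF10B, and was 1.90, 2.49 and 2.45 RPKM in shLuc and 1.84, 1.97 and 1.73 RPKM in shWDR5. The first shLuc library lay inside the shWDR5 range, the fold was 0.815 and the adjusted p was 0.049, with the call lost in 8 of 11 alternatives. Without a replicate it ranged up to 0.152, the value without shLuc replicate 3, and it was also lost without shLuc replicate 2 (adjusted p = 0.150) and without any of the shWDR5 libraries (0.0902, 0.0573 and 0.134 for replicates 1, 2 and 3). TNFSF13, or APRIL, a B cell survival factor, was 2.27 ± 0.081 RPKM in shLuc and 2.48 ± 0.22 RPKM in shWDR5 (SD, n = 3 per group; log2 fold change 0.13, 95% confidence interval -0.08 to 0.34). TNFSF12 and TNFSF13 share 36.6% and 55.8% of their exon bases with the read-through gene TNFSF12-TNFSF13, which was listed at 0, so reads in the shared exons may be missing from all of these and their levels are uncertain.

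**Figure D2:**
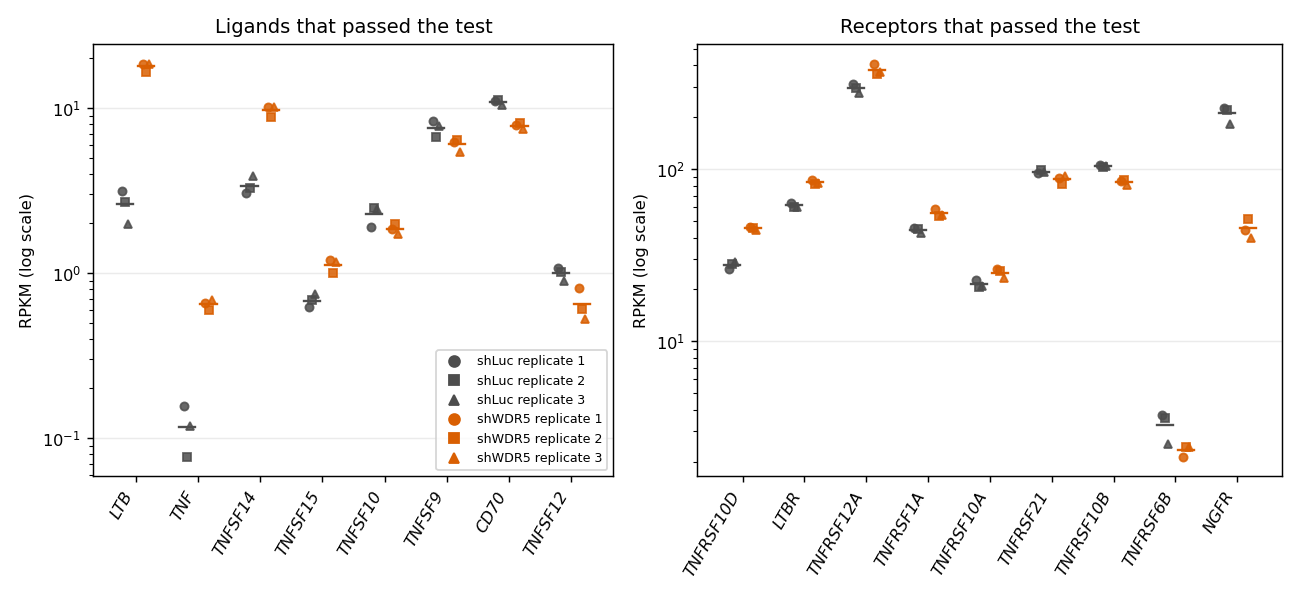
RPKM on a log axis for each of the 6 libraries, for the 8 ligands and 9 receptors that passed the test; grey symbols are shLuc, orange symbols shWDR5, symbol shapes give the replicate and short lines the group means. LTB, TNF and NGFR show the widest gaps between groups, and only TNFSF10 has a shLuc library inside the shWDR5 range.

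The genes of CD70, TNFSF9 and TNFSF14 are also neighbours, in 139.6 kb of chromosome 19. In hg19 they lie at chr19:6531010-6535939 for TNFSF9, chr19:6585850-6591163 for CD70 and chr19:6663148-6670599 for TNFSF14. Here the neighbours did not share a direction, since TNFSF9 and CD70 fell while TNFSF14 rose. Within 100 kb, 8 of 10 other genes were tested, of which 2 rose and 2 fell, with log2 fold changes from -0.94 to 0.56.

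NGFR showed the largest fall of the family. It encodes the low-affinity neurotrophin receptor, a death-domain protein that marks basal and myoepithelial cells in the breast, and was 227, 220 and 184 RPKM in shLuc and 44.2, 51.4 and 39.8 RPKM in shWDR5. No library of either group came near the other group, and the level fell to 0.215 of control (log2 fold change -2.22, SE 0.11, adjusted p = 1.8e-07), the 33rd lowest of all genes tested. In shLuc only TNFRSF12A had a higher mean level among the receptors, and in shWDR5 NGFR stood under TNFRSF12A, TNFRSF21, TNFRSF10B, LTBR, TNFRSF1A and TNFRSF10D by mean, although it differed from TNFRSF10D by less than the spread between its libraries. NGFR spans chr17:47572655-47592382 in hg19 and shares 5.91% of its exon bases with LOC100288866 on the other strand. In the epithelial list, the basal genes KRT5, KRT14 and KRT17 rose by 1.89-fold, 2.44-fold and 1.91-fold (largest adjusted p = 1.52e-06) and TP63 rose as well. The general epithelial genes CDH1 and EPCAM fell to 0.489 and 0.793 (adjusted p = 2.64e-07 and 0.00317). The part of these markers in the result was not tested.

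All 7 death-domain receptors were tested, of which 2 rose and 3 fell, or 28.6% and 42.9% against 26.6% and 29.9% of all genes tested. Those of TNF and TRAIL changed less than NGFR. TNFRSF1A, the main receptor of TNF in epithelial cells, was 45.7, 45.0 and 42.4 RPKM in shLuc and 58.4, 53.6 and 54.2 RPKM in shWDR5, without overlap, and rose 1.25-fold (log2 fold change 0.32, SE 0.058, adjusted p = 0.000875). TNFRSF21, a death receptor studied mainly in neurons and lymphocytes, was 94.6, 99.2 and 96.0 RPKM in shLuc and 89.0, 82.3 and 90.4 RPKM in shWDR5, a fold of 0.903 with adjusted p = 0.0399. Its call was lost in 7 of 11 alternatives, including DESeq2 (adjusted p = 0.0983) and the fits without shLuc replicate 1, 2 or 3 (0.0635, 0.0920 and 0.0594) or without shWDR5 replicate 2 (0.167). FAS, the receptor of Fas ligand, was 16.0 ± 1.6 RPKM and 16.7 ± 1.2 RPKM (SD, n = 3 per group), with a 95% confidence interval for the log2 fold change of -0.12 to 0.25. TNFRSF25 was 8.92 ± 1.1 RPKM in shLuc and 8.18 ± 0.61 RPKM in shWDR5 (SD, n = 3 per group; confidence interval -0.34 to 0.09), and it passed the threshold, on the lower side, only without shLuc replicate 3 (adjusted p = 0.0462).

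The TRAIL receptors, 4 neighbouring paralogs on chromosome 8, separated into those that fell and those that rose. TNFRSF10B, the signalling receptor with the highest level, was 105, 102 and 104 RPKM in shLuc and 84.9, 85.8 and 81.0 RPKM in shWDR5, and fell to 0.808 (log2 fold change -0.31, SE 0.049, adjusted p = 0.000359). TNFRSF10A, the other signalling receptor, was 22.7, 20.6 and 21.0 RPKM in shLuc and 26.2, 25.5 and 23.4 RPKM in shWDR5, a 1.17-fold rise (adjusted p = 0.0167). For TNFRSF10A the gap was narrow, and the call was lost without shLuc replicate 2 or 3 (adjusted p = 0.0744 and 0.0580) or without shWDR5 replicate 1 or 2 (0.0527 and 0.0646). TNFRSF10D, a decoy with a truncated death domain, was 26.3, 27.9 and 28.8 RPKM in shLuc and 46.0, 45.4 and 44.0 RPKM in shWDR5, and rose 1.63-fold (log2 fold change 0.71, SE 0.055, adjusted p = 3.04e-06) with all libraries apart. TNFRSF10C, the decoy without an intracellular domain, had only 20 to 44 reads per library, and its log2 fold change was 0.56 (95% confidence interval 0.07 to 1.04, adjusted p = 0.0503). That value passed the threshold with RLE size factors (adjusted p = 0.0440), with genes kept by a minimum of 0.5 RPKM (0.0417) and without shLuc replicate 3 (0.0236). TNFRSF10C also shares 24.6% of its exon bases with another gene of the same strand, LOC254896.

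As a share of the summed RPKM of the 4 genes, the decoys TNFRSF10C and TNFRSF10D made up 18.3% ± 0.916 in shLuc and 29.5% ± 0.344 in shWDR5 (SD, n = 3 per group). TNFRSF10B went from 67.7% ± 0.261 to 54.3% ± 0.367 (SD, n = 3 per group), while the sum itself was 153 ± 1.83 RPKM and 155 ± 4.92 RPKM. The libraries of the groups did not overlap for either share, and both shares follow from the single-gene changes above. These paralogs resemble each other in sequence, how reads that fit several of them were counted is not given in the sources used here, and the single-gene values are uncertain to that extent. Their span in hg19 is 205 kb, in which and within 100 kb of which 7 of 8 other genes were tested, 0 rose and 2 fell.

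**Figure D3:**
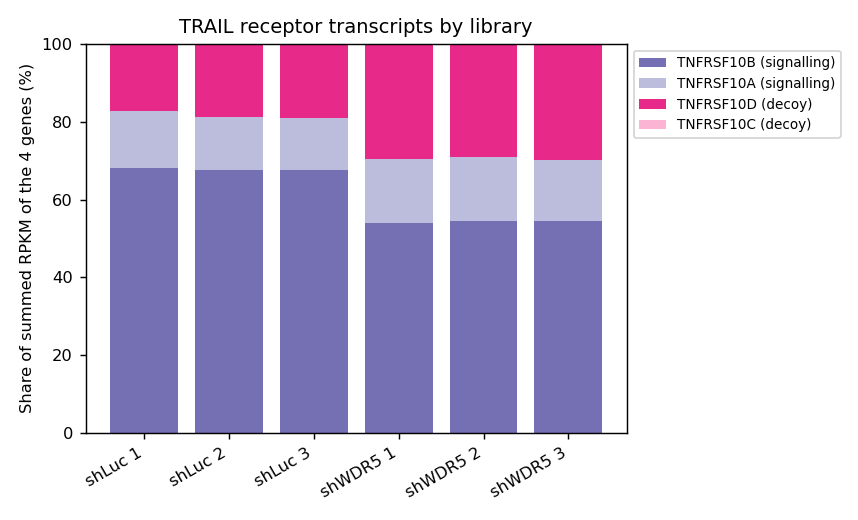
Stacked bars of the share of each TRAIL receptor gene in the summed RPKM of the 4 genes (y axis, percent) in each of the 6 libraries (x axis). TNFRSF10C, at 0.234% and 0.338% by group mean, is too thin to see, and the decoys together fill 17.2% to 18.9% of the shLuc bars and 29.2% to 29.9% of the shWDR5 bars.

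Among the other decoys, TNFRSF6B, a soluble receptor that takes up Fas ligand, TNFSF14 and TNFSF15, was 3.73, 3.57 and 2.53 RPKM in shLuc and 2.13, 2.42 and 2.42 RPKM in shWDR5. The groups only just missed each other, the fold was 0.708 and the adjusted p was 0.0151, and the call was lost without shLuc replicate 1 (adjusted p = 0.0658) or 2 (adjusted p = 0.0569). TNFRSF6B shares 90.6% of its exon bases with the read-through gene RTEL1-TNFRSF6B, listed at 0, so its level is uncertain. TNFRSF11B, or osteoprotegerin, lay at 0.378 ± 0.041 RPKM in shLuc and 0.269 ± 0.04 RPKM in shWDR5 (SD, n = 3 per group; adjusted p = 0.0509).

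Of the 16 receptors that bind TRAF proteins without a death domain, 8 were tested, 2 rose and none fell, so 25% rose against 26.6% of all genes tested, and 29.9% of all genes fell. LTBR, which carries the lymphotoxin and TNFSF14 signal to the alternative NF-kB route, was 63.6, 60.1 and 60.5 RPKM in shLuc and 86.2, 81.6 and 82.7 RPKM in shWDR5. It rose 1.36-fold (log2 fold change 0.44, SE 0.052, adjusted p = 4.59e-05), and the groups were far apart relative to their spread. TNFRSF12A, the small receptor of TNFSF12 that growth factors induce in many epithelia, had the highest level of all members, at 313, 295 and 276 RPKM in shLuc and 409, 356 and 364 RPKM in shWDR5. Its rise was 1.28-fold (log2 fold change 0.35, SE 0.069, adjusted p = 0.00137), again without overlap. RELT, an orphan receptor, was 4.92 ± 0.16 and 5.15 ± 0.44 RPKM (SD, n = 3 per group; 95% confidence interval of the log2 fold change -0.11 to 0.24), and TNFRSF11A, the receptor of the osteoclast factor TNFSF11, was 1.73 ± 0.2 and 1.65 ± 0.11 RPKM (SD, n = 3 per group; -0.29 to 0.15). TNFRSF1A and LTBR are neighbours on chromosome 12, at chr12:6437923-6451283 and chr12:6484534-6500737 in hg19, 33.251 kb apart. CD27, 53.314 kb further on, had 6 to 16 reads per library and did not pass (adjusted p = 0.157), and it overlaps the antisense gene CD27-AS1 over 35.8% of its exon bases. LTBR overlaps SCNN1A on the other strand over 3.61% of its exon bases, and without strand the reads of such overlaps cannot be told apart. Within 100 kb of these 3 genes, 2 of 10 other tested genes rose and 5 fell, with log2 fold changes from -1.12 to 1.46.

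**Figure D4:**
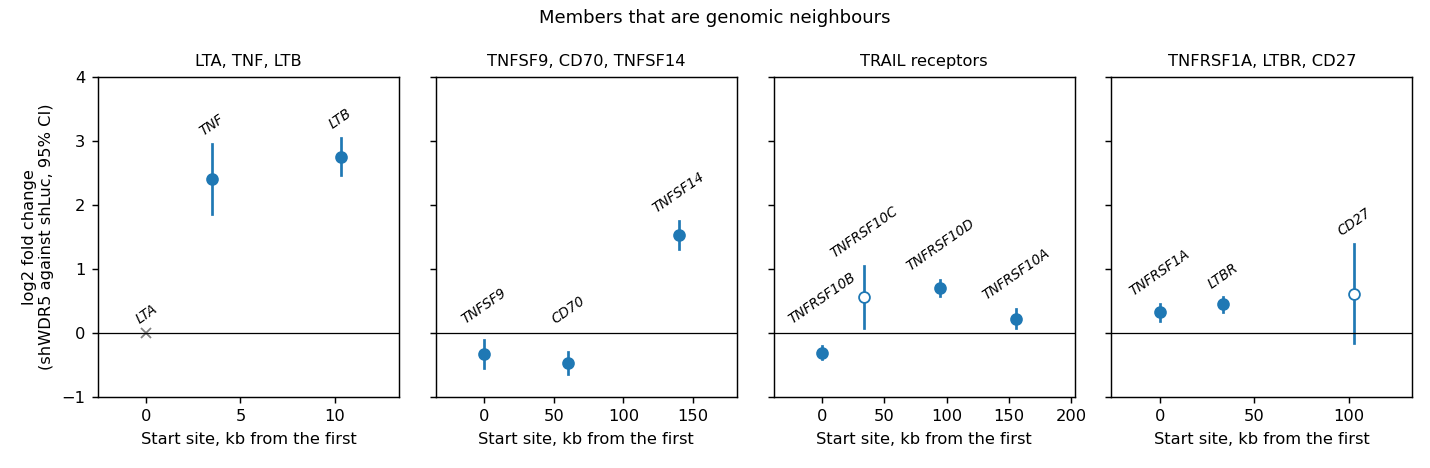
The log2 fold change with its 95% confidence interval (y axis) against the distance of each start site from the first of its group (x axis, kb), for 4 sets of neighbouring members; filled points had an adjusted p under 0.05 and the cross drawn at 0 marks the place of LTA, which was not tested and has no value here. TNF (2.40) and LTB (2.76) share a direction, whereas TNFSF9 and CD70 lie below 0 beside TNFSF14 (1.52), and TNFRSF10B lies below 0 beside the other TRAIL receptors.

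Set side by side as ligand and receptor, 6 of the 8 ligands that changed had a receptor transcript above 8 RPKM in both groups. For TNF and LTB, the receptors TNFRSF1A and LTBR were at 44.3 and 61.4 RPKM in shLuc and at 55.4 and 83.5 RPKM in shWDR5, while the second TNF receptor TNFRSF1B was at 0.141 and 0.155 RPKM. The LTBR transcript was thus abundant for TNFSF14 too, whose other receptor TNFRSF14 had at most 17 reads in any library. LTB itself binds LTBR in the heterotrimer with LTA, and LTA had at most 18 reads in any library. TNFSF12, at under 1.1 RPKM in every library, faced TNFRSF12A at 276 RPKM or more. For CD70 and TNFSF9 the receptors CD27 and TNFRSF9 stood at or below 0.245 and 0.328 RPKM in every library. FAS was present, and its ligand FASLG had at most 3 reads. Whether a transcript in bulk RNA comes from all cells or from some cannot be told, and fewer cells expressing a gene and less RNA per cell cannot be told apart.

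The remaining members were low. TNFSF4, TNFSF13B, TNFRSF1B, TNFRSF9 and TNFRSF19, tested and not past the threshold, had group means from 0.0956 to 0.432 RPKM, and TNFSF4 passed, on the higher side, only without shLuc replicate 1 (log2 fold change 0.98, adjusted p = 0.0197). Besides LTA, 14 members were not tested. TNFSF11 and TNFRSF13B were at 0 in all 6 libraries, which allows up to 3 reads in each. TNFSF12-TNFSF13 was also at 0, but it shares 31.9% of its exon bases with TNFSF12 and 68.1% with TNFSF13. Its 0 therefore sets no such limit. TNFSF8 reached 1 read, CD40 and TNFRSF18 2 reads, FASLG, TNFRSF8 and TNFRSF17 3 reads, TNFSF18 and TNFRSF4 5 reads, and CD40LG, TNFRSF13C and TNFRSF14 13, 15 and 17 reads. A difference in these genes, TNFSF12-TNFSF13 aside, was not detectable at this depth.

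The signalling genes under the receptors were read from lists. Of 27 receptor-proximal adaptors, TRAF proteins, ubiquitin ligases and kinases, all were tested, 14 rose and 4 fell, or 51.9% and 14.8% against 26.6% and 29.9% of all genes tested, with a median log2 fold change of 0.16 against -0.01 over all genes. TNFAIP3, the ubiquitin-editing brake on NF-kB, went from 7.28 ± 0.185 to 21.6 ± 1.26 RPKM (SD, n = 3 per group), a 2.96-fold rise (log2 fold change 1.57, adjusted p = 8.1e-08). TRAF1, an adaptor that NF-kB induces, rose from 0.346 to 0.696 RPKM (log2 fold change 0.99, adjusted p = 0.0023), and the death-domain adaptor TRADD and the TNFAIP3 partner TNIP1 rose by 1.43-fold and 1.41-fold. BIRC3, a ubiquitin ligase of the TNFRSF1A complex, rose 1.21-fold (adjusted p = 0.0294), a call lost without shLuc replicate 1 or 3 (0.0643 and 0.0614) or without shWDR5 replicate 2 or 3 (0.0699 and 0.105). In the other direction TRAF5 and the kinase MAP3K5 fell to 0.527 and 0.573 of control (adjusted p = 9.52e-06 and 2.75e-06). With a log2 fold change of 0.6 also required, the list held 2 genes that rose and 2 that fell, 14.8% of it against 22.9% of all genes tested.

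Among 10 death effectors, 9 were tested, 2 rose and 2 fell, a share of 44.4% called against 56.5% of all genes tested. BID, which CASP8 cleaves to engage mitochondria, rose 1.31-fold, and DIABLO, which relieves caspases from their inhibitors, rose 1.39-fold. The initiator caspases CASP10 and CASP8 fell to 0.674 (adjusted p = 0.00208) and 0.874 (adjusted p = 0.0276). CASP8 did not pass in DESeq2 (adjusted p = 0.0655) or without shLuc replicate 3 (0.0914), shWDR5 replicate 1 (0.0559) or shWDR5 replicate 2 (0.104). CFLAR, the catalytically inactive relative of CASP8 that blocks it, was 5.90 and 6.39 RPKM (log2 fold change 0.11, adjusted p = 0.0825) and passed with genes kept by a minimum of 0.5 RPKM (adjusted p = 0.0494).

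All 7 shedding genes were tested, and 2 rose and 2 fell, a share of 57.1% called, near the 56.5% of all genes tested. MMP7, a metalloproteinase that can release Fas ligand, went from 1.89 ± 0.232 to 15.2 ± 0.241 RPKM (SD, n = 3 per group), an 8.07-fold rise (log2 fold change 3.01). RHBDF2, which carries the TNF sheddase ADAM17 to the surface, rose 1.58-fold, while ADAM17 itself and the sheddase inhibitor TIMP3 fell to 0.841 and 0.678. Of the EDA branch, superfamily genes that the naming leaves out, the ligand EDA fell from 0.538 to 0.331 RPKM (log2 fold change -0.70, adjusted p = 0.00175) and the receptor EDA2R, a p53 target, rose from 3.39 to 5.25 RPKM (log2 fold change 0.63, adjusted p = 0.000123).

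**Figure D5:**
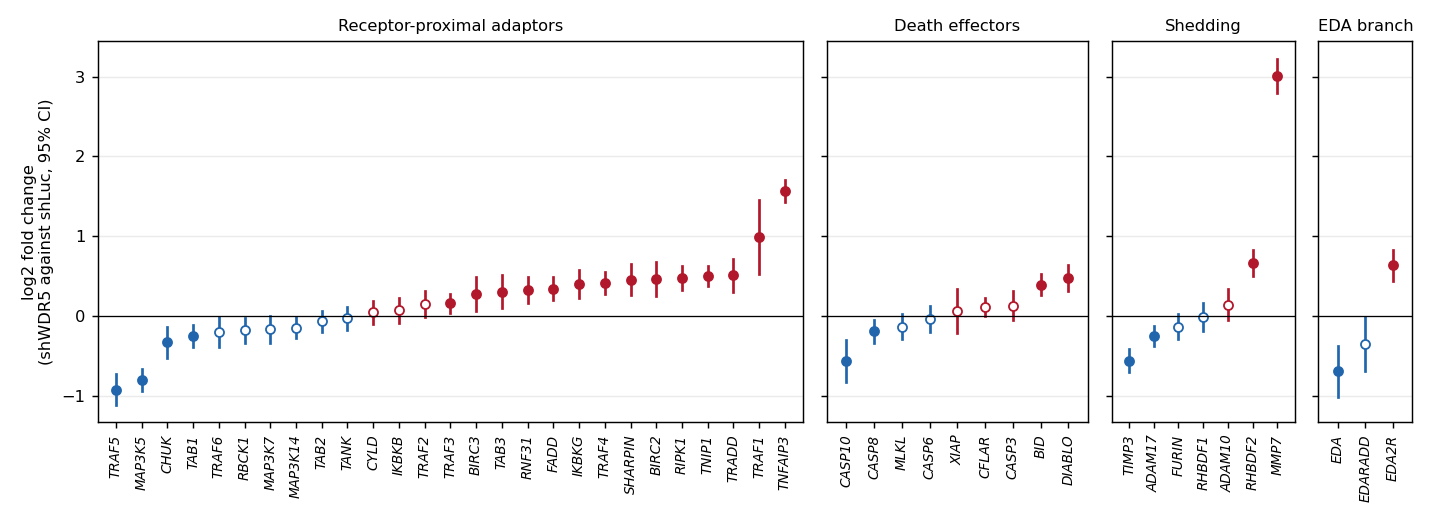
The log2 fold change of shWDR5 against shLuc with its 95% confidence interval (y axis) for each tested gene of 4 lists (x axis), red above 0 and blue below 0; filled points had an adjusted p under 0.05. In the adaptor list 14 points are filled above 0 and 4 below, with TNFAIP3 at 1.57, and MMP7 at 3.01 stands alone in the shedding list.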

How the data were processed

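Poly-A RNA of MCF10DCIS.com cells was made into TruSeq libraries, a kit that does not mark strand, and sequenced on an Illumina HiSeq. The submitters' processing notes name TopHat2 2.1.0, featureCounts, edgeR 3.2.2 and hg19. The deposited table holds raw counts per gene with exon positions and lengths in hg19, 1 column per library. The authors also deposited their own fold changes, mean levels, F, p and FDR values, which were not used. Settings for strand, shared exons and multiply mapping reads are not given in the sources used here.

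The members and lists were chosen with earlier results of these data known. All genes were fitted together in edgeR 4.0.16 (R 4.3.3) with TMM factors, filterByExpr (10 reads in a library of median size, in at least 3 libraries) and the quasi-likelihood test, without covariates. Adjusted p-values are Benjamini-Hochberg values over the 16117 genes tested. SE and 95% confidence intervals of log2 fold changes were derived from the F statistic. RPKM was computed from the counts, TMM-scaled totals and exon lengths, and SD is over libraries. The fit was tested on simulated data. One gene of the death effector list and one leukocyte marker are not reported here, and the counts of those lists leave them out. Members past an adjusted p of 0.05 are given in all libraries, other tested members by group means where the mean reaches 1 RPKM, and up to 6 called genes are named per list, with TRAF1, BIRC3, CFLAR and CASP8. TNFRSF10C, TNFRSF11B, TNFRSF1B, TNFRSF9, TNFRSF14, CD27, TNFSF4 and the keratins were named after their values were seen. Ligand and receptor pairs were taken from textbook knowledge. Intervals and limits on counts of 0 cover counting error only. Libraries of a group differed by more than sampling noise. Alternatives were DESeq2 1.42.0, RLE size factors, other read minimums, a larger fold, a replicate block and leaving out each library.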

Additional observations from a re-analysis of the deposited data

How the results depend on the processing

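Of the 17 members called, 12 (CD70, LTB, LTBR, NGFR, TNF, TNFRSF10B, TNFRSF10D, TNFRSF12A, TNFRSF1A, TNFSF12, TNFSF14 and TNFSF15) kept direction and call in all 11 alternatives that refitted the model, and TNFSF10, TNFRSF21, TNFRSF10A, TNFSF9 and TNFRSF6B kept direction but lost the call in 8, 7, 4, 3 and 2 of them. Requiring a log2 fold change of 0.6 lowered the genes called to 1751 higher and 1939 lower, the ligands lower to 1, the receptors to 1 higher and 1 lower, the adaptors to 2 higher and 2 lower, the death effectors to 0 higher and 0 lower, and the shedding genes lower to 0. Replicate numbers were not taken as pairs, since the labels do not say that they pair libraries. Same-numbered libraries correlated in their deviations at 0.372, 0.0358 and 0.116. The same number was the best partner for shLuc replicates 1 and 3, while shLuc replicate 2 correlated best with shWDR5 replicate 3 (0.210). These values do not settle whether the libraries were paired. With the numbers as a replicate block, 4901 genes were higher and 5511 lower, 8 adaptors were lower, 4 death effectors were higher and CFLAR passed (adjusted p = 0.0219). Leaving out 1 library at a time gave 2 to 3 ligands lower, with 2 without shLuc replicate 3 or shWDR5 replicate 3, 2 to 4 receptors lower, with 2 without shLuc replicate 1 or 2, and 1 to 2 death effectors lower, with 1 without shLuc replicate 3 or shWDR5 replicate 1 or 2. With DESeq2, and with genes kept by a minimum of 0.5 RPKM, 1 death effector was lower. Over the same fits the log2 fold change changed sign for 4 members that were not called, FAS (-0.0018 to 0.12, lowest without shLuc replicate 1), TNFRSF11A (-0.13 to 0.019, highest without shLuc replicate 3), TNFRSF1B (-0.055 to 0.44, lowest without shLuc replicate 1) and TNFSF13B (-0.11 to 0.33, lowest without shWDR5 replicate 3). The cause of these differences was not tested. Depth limits the members under about 20 reads per library.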
